A study of Mus musculus with 24 samples.

Results

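The dystrophin glycoprotein complex was followed through 8 of its genes (Dmd, Utrn, Dag1, Sgca, Sgcb, Sgcd, Sntb1 and Dtna) in C2C12 cells, a mouse myoblast line that fuses into myotubes when serum is withdrawn. All probe sets annotated with 1 of these symbols were taken from both array designs, which gave 29 of 45137 probe sets: 22 of 22626 on the MA arrays and 7 of 22511 on the MB arrays. MA and MB are the endings of the sample titles for the 2 Affymetrix designs, which carry different probe sets. Of the 29, 20 passed the signal filter (14 on MA, 6 on MB) and 9 did not. The filter asked for a signal of 30 or more in at least 3 of the 12 arrays of a design.

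The cells had been transduced with the empty pSuperR vector or with the same vector carrying a short hairpin RNA (shRNA) against p68, the RNA helicase encoded by Ddx5. Total RNA came from cells in growth medium (GM) or in differentiation medium (DM), and the study set out to ask what interference with p68 and its relative p72 does to muscle differentiation; the labels name a hairpin against p68 alone. Each design held 4 groups of 3 arrays: vector in GM, vector in DM, shRNA in GM and shRNA in DM. All groups share the C2C12 line and the pSuperR backbone, and the labels name 1 shRNA, no time in DM and no number of independent transductions. Nothing in them tells whether arrays of a group are separate cultures. The p-values therefore reflect array-to-array spread, which could be technical. In bulk RNA, fewer differentiated cells and less RNA per cell cannot be told apart.

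The complex joins the actin cytoskeleton of a muscle fibre to the basement membrane. Dystrophin (Dmd) binds actin and the membrane protein beta-dystroglycan, and its homologue utrophin (Utrn) can take the same place. Dystroglycan (Dag1) is cleaved into an extracellular laminin-binding part and a membrane-spanning part, the sarcoglycans (Sgca, Sgcb, Sgcd and others) form a membrane subcomplex beside it, and dystrobrevin (Dtna) and the syntrophins (Sntb1 and others) are cytoplasmic adaptors. Loss of dystrophin or of the sarcoglycan encoded by Sgca, Sgcb or Sgcd causes muscular dystrophy.

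The labels were checked first. The 12 MA arrays had been scaled to a common trimmed mean (2% at each end) of 150.1 and the MB arrays to a like value, and the correlation of log2 values of an array with its own group averaged 0.951 to 0.983 on MA and 0.825 to 0.886 on MB. Ddx5 signal in DM was 674, 541 and 408 in vector cells and 373, 302.5 and 302.5 in shRNA cells. In GM it was 483, 420 and 489 in vector cells and 351, 388 and 377 in shRNA cells. The groups did not overlap in either medium, and the difference passed the test in DM (log2 change −0.68 ± 0.15 (SE), adjusted p = 0.0068) and not in GM (−0.31 ± 0.15, adjusted p = 0.29). Myog, a transcription factor of muscle differentiation, rose from 77.8 ± 13.6 (SD, n = 3) in GM to 6860 ± 1788 in DM in vector cells, and Ckm, the muscle creatine kinase, from 49.9 ± 2.0 to 6617 ± 1233. Here and below, adjusted p-values come from limma with Benjamini-Hochberg adjustment over all tested probe sets of a design, and log2 changes are on the log2(signal + 15) scale.

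Markers of other cell types were mostly low on the MA arrays. Adipoq and Lep of adipocytes, Vwf, Tek and Pecam1 of endothelium, Ptprc and Itgam of macrophages and Snap25 and Nefl of neurons stayed below 30 in all 12 arrays. Other markers of these lists did not. Cdh5 of endothelium and Mbp of Schwann cells were not tested and reached 52.5 and 40.2. The macrophage marker Cd14 read 71.85 to 154 in GM and 32.45 to 69.3 in DM arrays, and Adgre1 16.6 to 39.9 and 34.0 to 70.0. Of 5 fibroblast markers 3 were tested. Their list's summed signal was 65.1 to 86.6 in GM vector, 135 to 171 in DM vector, 118 to 158 in GM shRNA and 142 to 160 in DM shRNA arrays. Dpt, a matrix protein, rose with DM in vector cells (1.85 ± 0.22, adjusted p = 1.9e-05 with no filter), and so did the proteoglycan gene Dcn (1.11 ± 0.20, adjusted p = 0.00032 with no filter). In the filtered fit Dcn was also higher with the shRNA in GM (0.97 ± 0.20, adjusted p = 0.0098). Its GM signals all lay below 30, at 3.04 to 4.885 in vector and 19.0 to 26.35 in shRNA arrays. Dcn passed the filter through 4 DM arrays. Thy1 and Lum were not tested and reached 36.6 and 43.0. The part of these markers in the results below was not tested. Of 5 smooth muscle markers 4 were tested. In DM vector cells 2 of them fell and 1 rose. The rise was that of Acta2, a call lost in 4 of 6 fits without 1 array (adjusted p up to 0.10) and with no filter (adjusted p = 0.062). Cnn1 fell (adjusted p = 0.00013 with no filter) and reached 30 in 6 GM and 0 DM arrays. The list's summed signal, most of it from Acta2, was 8278 to 9189 in GM vector, 7984 to 13160 in DM vector, 7345 to 10080 in GM shRNA and 8476 to 10570 in DM shRNA arrays.

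Of the other marker lists, macrophage markers summed to 184 to 247, 157 to 270, 227 to 299.5 and 181 to 240 in the same order of groups, with 1 of 4 tested markers rising and 1 falling in DM vector cells. On the MA arrays adipocyte markers summed to at most 79.3, endothelial markers to at most 153 and Schwann cell and neuron markers to at most 104. On the MB arrays the last list summed to at most 142.5. The tested members of these lists on MA numbered 1 each, and of these the neuronal tubulin gene Tubb3 fell in DM vector cells.

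Promoter sequence is shown for the 3 membrane genes on which the comparisons below turn, Dag1, Sgca and Sgcb, because all 3 rose in DM, while Sgca and Sgcb, and not Dag1, had a called change with the shRNA. Each is the 200 bases just upstream of the outermost annotated start (RefSeq, GRCm38.p6), 5′ to 3′ on the gene's strand, which is the minus strand for all 3: chr9:108263978-108264177 for Dag1, chr11:94976328-94976527 for Sgca and chr5:73647738-73647937 for Sgcb. Capitals mark the E-box CANNTG, the letters bound by myogenic factors such as MyoD and myogenin.
Dag1: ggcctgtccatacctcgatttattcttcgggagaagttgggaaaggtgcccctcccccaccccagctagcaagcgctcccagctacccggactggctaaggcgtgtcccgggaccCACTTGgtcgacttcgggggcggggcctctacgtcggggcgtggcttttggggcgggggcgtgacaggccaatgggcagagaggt
Sgca: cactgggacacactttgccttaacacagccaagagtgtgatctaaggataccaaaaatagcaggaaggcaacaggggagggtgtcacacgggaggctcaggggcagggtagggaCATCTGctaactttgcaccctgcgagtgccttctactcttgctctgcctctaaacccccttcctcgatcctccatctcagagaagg
Sgcb: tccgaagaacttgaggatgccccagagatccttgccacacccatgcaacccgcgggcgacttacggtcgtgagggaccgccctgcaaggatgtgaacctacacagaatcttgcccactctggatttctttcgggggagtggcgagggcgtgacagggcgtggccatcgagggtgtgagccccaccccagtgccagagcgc

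Both strands were searched. Dag1 held 1 E-box (CACTTG) and 2 GC boxes (GGGCGG), Sgca held 1 E-box (CATCTG), and Sgcb held no E-box and 1 GC box. None of the 3 held the E-box CAGCTG, which is itself a CANNTG, the TATA box TATAAA or the MCAT letters CATTCC. Among the 32851 promoters of the same length, 58.2% held CANNTG, 10.9% CAGCTG, 31.0% GGGCGG, 9.96% TATAAA and 10.1% CATTCC. These matches describe the letters of the windows alone. RefSeq windows were given for 6 of the 8 members.

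The first comparison asked how the complex changed when vector cells were moved from GM to DM. On the MA arrays 12 of the 14 tested member probe sets rose and 0 fell, covering all 5 tested genes, and on the MB arrays 4 of 6 rose and 0 fell, all 4 of them for Sntb1. Of all tested MA probe sets 49.3% changed, 23.9% rising and 25.4% falling, and of all MB probe sets 9.21% changed, 4.21% rising and 5% falling. The median log2 change of the members was 1.89 on MA, against 0.0085 over all tested probe sets, and 2.75 on MB, against −0.0097. On MB 4 of the 6 values were of Sntb1 alone, while Dmd gave 0.42 and Sgcb 0.63. Arrays of the media did not overlap for 13 of the 14 MA members, against 53.9% of all MA probe sets, and for 5 of the 6 MB members, against 23.4%. Of the tested members 5 on MA and 4 on MB did not reach 30 in 3 GM arrays, so they passed the filter through their DM arrays and those that rose had to differ. They were 4 probe sets of Dtna (1419223_a_at, 1425292_at, 1426066_a_at and 1429768_at), 1427569_a_at of Utrn, 3 probe sets of Sntb1 (1435987_x_at, 1436203_a_at and 1438288_x_at) and 1443315_at of Dmd. The medians and overlap counts above include these probe sets, which were tested only because of their DM signal. Their adjusted p of a medium change is given from the fit with no filter. That fit held all 22 MA and 7 MB member probe sets, of which 14 and 4 rose and 0 fell, against 30.9% changed, 15.2% rising and 15.7% falling, among all MA and 7.51% changed, 3.52% rising and 3.98% falling, among all MB probe sets. Of the other tested members, 8 of 9 on MA and 1 of 2 on MB rose. The share rising among all probe sets that passed on their GM arrays alone was not computed.

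**Figure D1:**
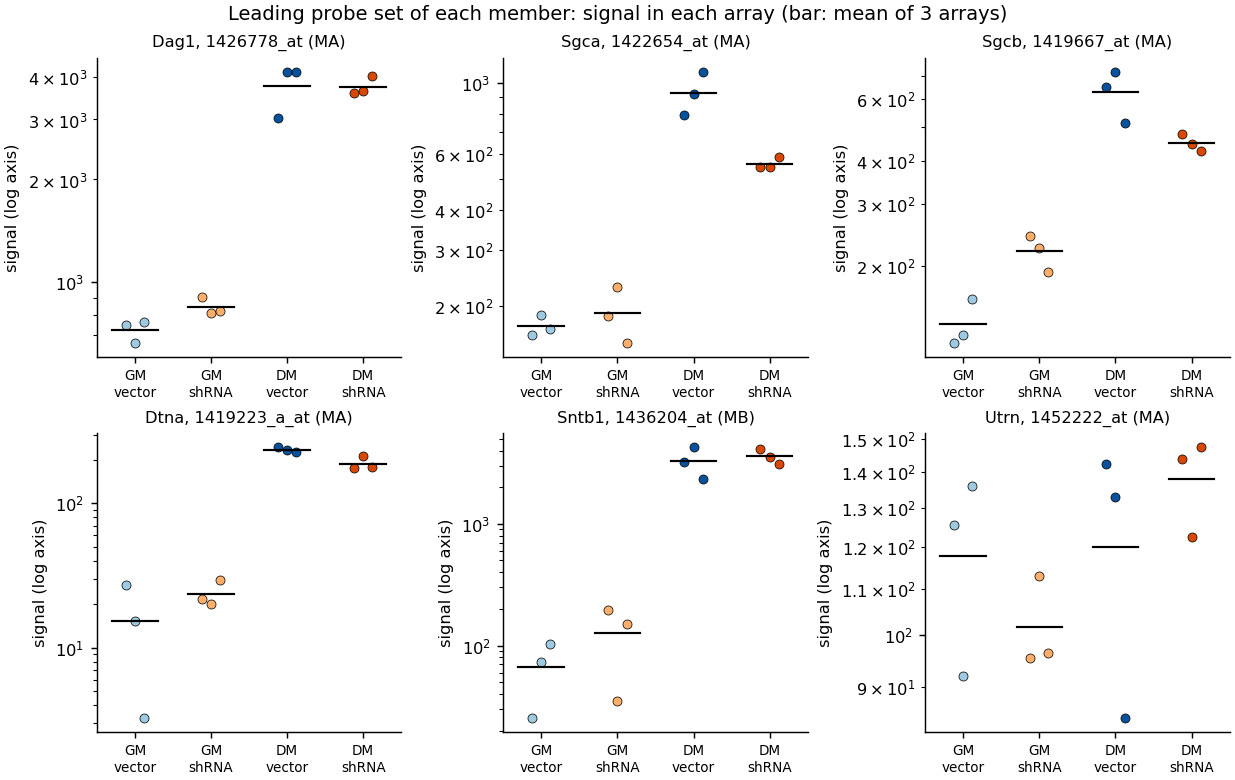
Signal in each array (log axes, arbitrary units) of the leading probe set, the one with the highest mean signal, for 6 members, by group; points are arrays and bars are means of 3 arrays. Dag1, Sgca, Sgcb, Dtna and Sntb1 lie higher in every DM array than in any GM array, Sgca is lower in DM shRNA than in DM vector arrays, and Utrn overlaps between media in vector cells.

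Dag1, the dystroglycan gene, rose on all 4 of its tested probe sets. Its leading probe set 1426778_at read 746, 662 and 763.5 in GM vector, 3039, 4136 and 4145 in DM vector, 902, 813 and 821 in GM shRNA and 3592, 3637 and 4015 in DM shRNA arrays. Every DM array lay above every GM array, and the DM arrays of vector and shRNA cells overlapped. The rise was 2.35 ± 0.12 in vector cells (adjusted p = 1.0e-09) and 2.13 ± 0.12 with the shRNA (adjusted p = 7.0e-09). The other 3 Dag1 probe sets rose as well, by 0.91 to 2.10 in vector cells and by 1.06 to 2.26 in shRNA cells, with 1426779_x_at the smallest in both.

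Sgca encodes alpha-sarcoglycan, a subunit made mainly in striated muscle. Its probe set 1422654_at read 162, 187 and 169 in GM vector, 792, 921 and 1084 in DM vector, 186, 229 and 153 in GM shRNA and 545, 544 and 586 in DM shRNA arrays. The DM arrays lay above all GM arrays, and the DM shRNA arrays lay together between them and the DM vector arrays. The rise was 2.33 ± 0.14 in vector cells (adjusted p = 6.7e-09) and 1.504 ± 0.14 with the shRNA (adjusted p = 1.8e-06).

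Sgcb encodes beta-sarcoglycan, a subunit also made outside muscle, and was read by 3 probe sets. On MA, 1419667_at read 120.0, 127 and 161 in GM vector, 651, 720.5 and 514 in DM vector, 244, 225.5 and 192 in GM shRNA and 477, 446 and 427 in DM shRNA arrays. The 4 groups did not overlap, with the shRNA arrays above the vector arrays in GM and below them in DM. It rose by 2.09 ± 0.15 in vector cells (adjusted p = 2.3e-08) and by 0.99 ± 0.15 in shRNA cells (adjusted p = 0.00011).

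The other MA probe set of Sgcb, 1419668_at, read 77.7, 59.8 and 70.0 in GM vector, 378, 319 and 206 in DM vector, 102.5, 142 and 141 in GM shRNA and 278, 262 and 175 in DM shRNA arrays. It rose by 1.87 ± 0.21 and 0.81 ± 0.21 in vector and shRNA cells, again with all DM arrays above the GM arrays of the same cells. On MB, 1436678_at read 244, 267 and 163 in GM vector and 442, 331 and 289 in DM vector arrays, a change of 0.63 ± 0.25 that missed the threshold (adjusted p = 0.14). In shRNA cells it gave 0.038 ± 0.25, with overlapping arrays. The probe sets of Sgcb thus differed in size of change and, between the designs, in call.

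Sgcd encodes delta-sarcoglycan. Its 1 probe set, 1450805_at, stayed between 16.2 and 27.1 in all 12 MA arrays with overlapping groups and was not tested. The sarcoglycans with a usable signal were therefore alpha, beta and, from the list of other subunits, epsilon (Sgce), which changed by 0.016 ± 0.19 in vector cells (adjusted p = 0.95).

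Among the cytoplasmic adaptors, Dtna encodes alpha-dystrobrevin. Its leading probe set 1419223_a_at read 27.0, 15.3 and 3.24 in GM vector, 247, 235 and 227 in DM vector, 21.6, 20.0 and 29.2 in GM shRNA and 175, 212 and 178 in DM shRNA arrays. All GM arrays lay below the filter value of 30 and all DM arrays far above it, and the DM shRNA arrays lay just below the DM vector arrays without overlap. The change was 3.14 ± 0.23 in vector cells (adjusted p = 3.2e-07 with no filter) and 2.40 ± 0.23 in shRNA cells (adjusted p = 9.9e-06 with no filter). Of the 5 tested Dtna probe sets 4 rose in vector cells and 3 in shRNA cells. 1429768_at passed in neither (0.59 ± 0.26 in vector cells, adjusted p = 0.11 with no filter), and 1427588_a_at passed in vector cells alone (0.77 ± 0.16, adjusted p = 0.0012, against 0.35 ± 0.16 and 0.12 in shRNA cells).

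Sntb1 encodes beta-1-syntrophin and held the highest fitted changes among the members. Its leading MB probe set 1436204_at read 25.3, 73.2 and 102 in GM vector, 3226, 4295 and 2347 in DM vector, 194.5, 35.05 and 152 in GM shRNA and 4116, 3526 and 3079 in DM shRNA arrays. The media were far apart, while vector and shRNA arrays overlapped within each medium. It rose by 5.42 ± 0.43 in vector cells (adjusted p = 4.2e-08) and by 4.89 ± 0.43 in shRNA cells (adjusted p = 3.3e-07).

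The other 3 tested Sntb1 probe sets rose by 2.11 to 4.20 in vector cells. The smallest of these, 1435987_x_at (2.11 ± 0.51, adjusted p = 0.013 with no filter), reached 30 in 0 GM arrays. In the filtered fit it lost its call without GM vector array 2 (adjusted p = 0.058) or DM vector array 1 (adjusted p = 0.054) and was not called in shRNA cells (1.12 ± 0.51, adjusted p = 0.33 with no filter). The 2 Sntb1 probe sets of the MA design were dim and failed the filter. 1421455_at read 1.04 to 3.19 in the GM vector and 20.6 to 33.2 in the DM vector arrays. Tested with no filter, the rise was 1.34 ± 0.16 with vector (adjusted p = 2.1e-05) and 1.22 ± 0.16 with shRNA (adjusted p = 0.00011). 1451938_a_at, with a highest value of 45.3, rose in vector cells (1.29 ± 0.26, adjusted p = 0.0015) and gave 0.50 ± 0.26 in shRNA cells (adjusted p = 0.22).

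The actin-linking members gave mixed or no usable signals. For Utrn, 1452222_at read 125.5, 92.0 and 136 in GM vector, 142, 133 and 84.3 in DM vector, 95.4, 113 and 96.4 in GM shRNA and 144, 122.5 and 147.5 in DM shRNA arrays. Vector arrays of the media overlapped, and the change was 0.0094 ± 0.18 (95% interval −0.38 to 0.40, adjusted p = 0.97). In shRNA cells the media did not overlap and the change of 0.39 ± 0.18 missed the threshold (adjusted p = 0.12), but passed when only those 6 arrays were fitted (adjusted p = 0.034).

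The Utrn probe sets disagreed. 1427569_a_at read 20.6, 5.55 and 20.7 in GM vector and 39.9, 38.9 and 53.7 in DM vector arrays and rose by 0.99 ± 0.23 (adjusted p = 0.0057 with no filter). In shRNA cells it read 25.8, 30.3 and 33.7 in GM and 29.3, 40.1 and 47.3 in DM, which overlapped (0.25 ± 0.23, adjusted p = 0.55 with no filter). 1426892_at lay between 0.676 and 2.79 and was not tested.

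Dmd, the dystrophin gene, gave no usable signal on MA, where its 3 probe sets never exceeded 18.5. On MB, 1443315_at read 3.58, 20.6 and 59.3 in GM vector, 8.13, 54.3 and 58.5 in DM vector, 16.4, 35.3 and 25.3 in GM shRNA and 37.3, 7.36 and 6.32 in DM shRNA arrays. The arrays scattered over the whole range within single groups, and the medium changes of 0.42 ± 0.58 (95% interval −0.80 to 1.64) in vector cells and −0.45 ± 0.58 in shRNA cells were not called. A change of dystrophin mRNA was thus not detectable with these probe sets.

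**Figure D2:**
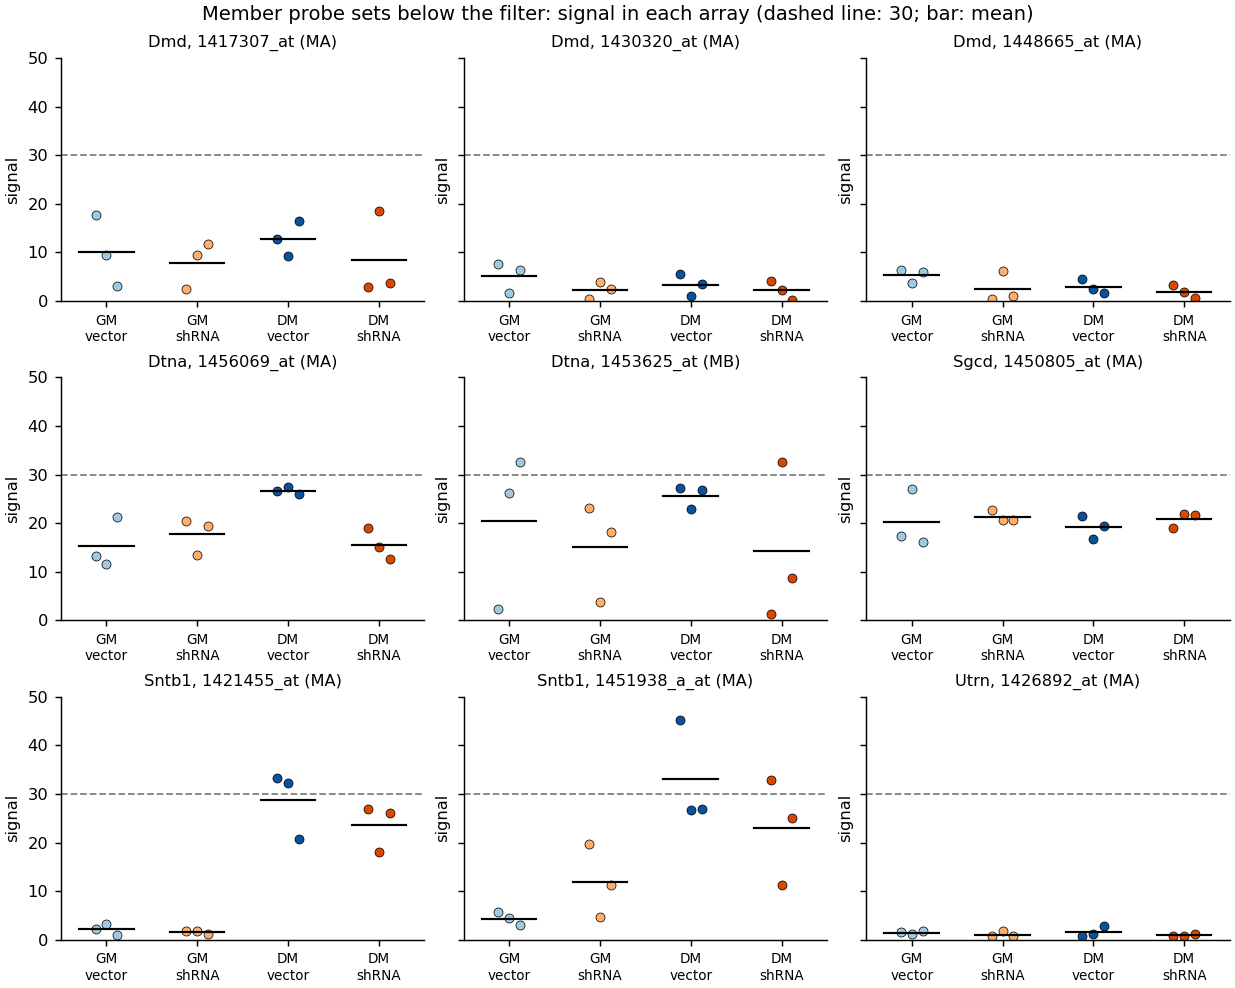
Signal (linear axis, arbitrary units) in each array of the 9 member probe sets that did not pass the filter, by group, with the filter value of 30 as a dashed line and bars for means of 3 arrays. The 3 Dmd and the Utrn probe sets stay at or below 18.5, Sgcd lies flat between 16.2 and 27.1, and both Sntb1 probe sets are higher in DM vector than in GM vector arrays.

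In shRNA cells the same move to DM raised 10 of the 14 MA probe sets and 3 of the 6 MB probe sets, with 0 falling in either. Of all tested MA probe sets 33.9% changed, 16.3% rising and 17.5% falling, and of all MB probe sets 4.85% changed, 2.27% rising and 2.57% falling. Arrays of the media did not overlap for 12 of the MA members, against 50.6% of all, and for 3 of the MB members, against 21%. The members' median change was 1.10 on MA, against −0.0030 over all tested probe sets, and 1.78 on MB, against 0.025. These counts and medians include the 5 MA and 4 MB probe sets, named above, that passed the filter through their DM arrays. Of those, 3 on MA and 2 on MB rose in shRNA cells. Among the members that passed on their GM arrays alone, 7 of 9 on MA and 1 of 2 on MB rose. Here too the matching share among all probe sets was not computed. Utrn was the 1 tested MA gene with no called probe set in shRNA cells.

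The log2 ratio of 3′ to 5′ control signal, averaged over the Gapdh and beta-actin transcripts, was lower in DM than in GM by 0.093 in vector cells on MA (exact two-sided permutation p = 0.10, the smallest that 3 against 3 arrays allow) and by 0.040 in shRNA cells (exact p = 0.20). On MB it was lower by 0.14 in vector cells (exact p = 0.10), while shRNA cells gave −0.013 (exact p = 0.50). Between shRNA and vector cells it differed on MB by −0.099 in GM and 0.030 in DM (exact p = 0.10 for each) and on MA by −0.046 in GM (exact p = 0.20) and 0.0063 in DM (exact p = 0.90). Its part in the changes of the members was not tested.

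The second comparison set shRNA against vector cells in DM. On MA 2 of the 14 member probe sets fell and 0 rose, against 16.9% changed, 10.7% rising and 6.24% falling, among all tested probe sets. Arrays did not overlap for 4 of the 14, against 30.7%. The members' median change was −0.14, against 0.052. Both falls were in sarcoglycans, Sgca and Sgcb. On MB none of the 6 was called (0 also at an unadjusted limma p under 0.05), where 1.17% of all probe sets were, 0.782% rising and 0.389% falling. Arrays did not overlap for 1 of the 6, against 13.8%. These changes share the DM vector arrays with the medium change in vector cells.

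Sgca was lower in all 3 DM shRNA arrays than in any DM vector array, as listed above, by 0.71 ± 0.14 (95% interval −1.02 to −0.40, adjusted p = 0.0032), a signal ratio of 0.60. The call held without each of the 6 arrays in turn, with adjusted p from 0.0019 to 0.017. In the same arrays Ckm changed by −0.99 ± 0.14 (adjusted p = 0.0002) and Myog by −0.36 ± 0.17 (adjusted p = 0.17).

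For Sgcb, 1419667_at fell by 0.46 ± 0.15 (adjusted p = 0.043), a signal ratio of 0.72. The call was lost without DM vector array 1 or 2 or any 1 of the 3 DM shRNA arrays (adjusted p 0.070 to 0.166) and held without DM vector array 3 (0.0091). The other probe sets gave −0.30 ± 0.21 (1419668_at, adjusted p = 0.38) and −0.37 ± 0.25 (1436678_at on MB, adjusted p = 0.67), with overlapping arrays.

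For Dag1 no difference was called. 1426778_at changed by 0.0032 ± 0.12 between shRNA and vector cells in DM (95% interval −0.26 to 0.27, adjusted p = 0.99), and its other probe sets by 0.018 to 0.21. In GM 1426778_at was higher in all 3 shRNA arrays than in the vector arrays, by 0.22 ± 0.12, which missed the threshold (adjusted p = 0.34). Sgca was also set against Dag1 within each array, a contrast chosen after the values were seen. The log2 difference Sgca minus Dag1 lay between −2.15 and −1.92 in the 3 DM vector and between −2.74 and −2.69 in the 3 DM shRNA arrays, with no overlap (exact two-sided permutation p = 0.10, the smallest possible). It was −1.98 ± 0.20 in GM vector and −2.09 ± 0.29 in GM shRNA arrays, which overlapped (exact p = 0.50). The same difference in DM overlapped between shRNA and vector arrays for Sgcb (−3.19 to −2.88 against −2.97 to −2.20, exact p = 0.20) and for Dtna (−4.39 to −4.01 against −4.10 to −3.54, exact p = 0.30).

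The adaptors did not pass in DM. Dtna 1419223_a_at gave −0.31 ± 0.23 (95% interval −0.81 to 0.19, adjusted p = 0.42) although its arrays did not overlap, and Sntb1 1436204_at gave 0.15 ± 0.43 (interval −0.74 to 1.05). Sntb1 1438288_x_at read 534, 292 and 271 in DM vector and 249.6, 190.0 and 118 in DM shRNA arrays, which did not overlap, and its change of −0.91 ± 0.44 missed the threshold (adjusted p = 0.48). Utrn gave 0.21 ± 0.18 and −0.14 ± 0.23 for its 2 tested probe sets.

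**Figure D3:**
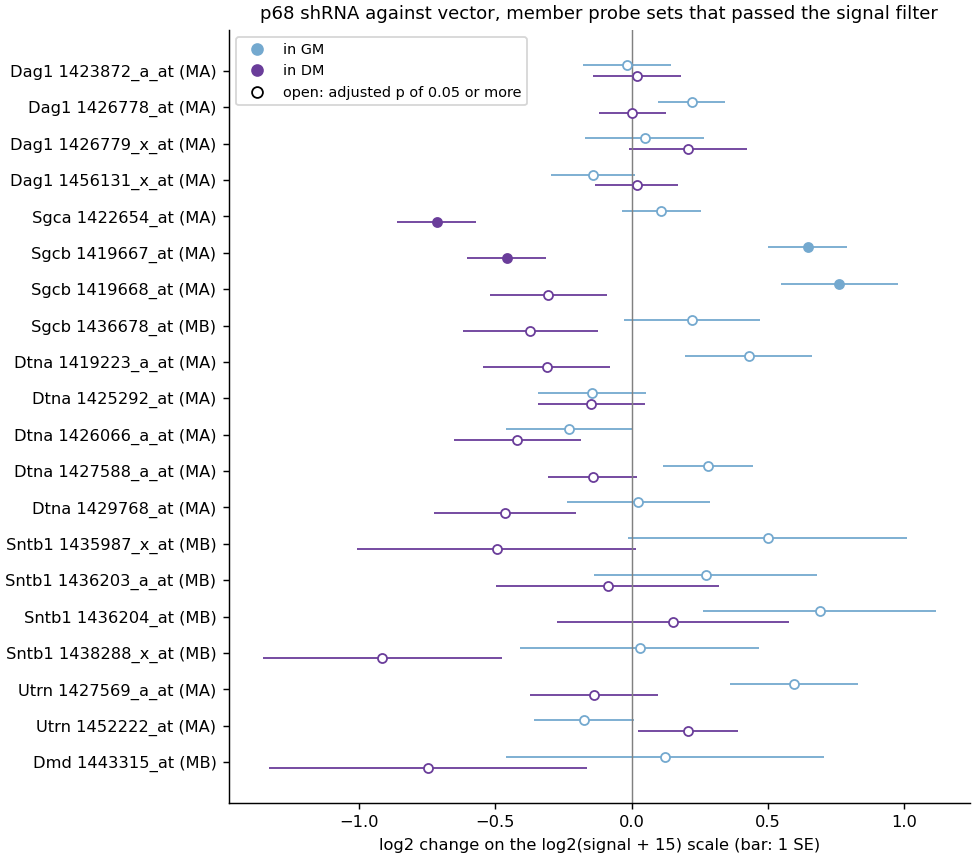
Log2 change of shRNA against vector cells (log2(signal + 15) scale, bars 1 SE) of the 20 tested member probe sets in GM and in DM; filled points passed an adjusted p of 0.05. Sgca and 1 Sgcb probe set are lower in DM, the MA probe sets of Sgcb are higher in GM, and the 4 Dag1 probe sets lie near 0.

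In GM, where the shRNA and vector myoblasts had not been moved to DM, 2 of the 14 MA probe sets rose and 0 fell, against 6.56% changed, 3.99% rising and 2.57% falling, among all. Arrays did not overlap for 5 of the 14, against 30%. Both belonged to Sgcb: 1419667_at by 0.64 ± 0.15 (adjusted p = 0.016) and 1419668_at by 0.76 ± 0.21 (adjusted p = 0.048). On MB, Sgcb 1436678_at gave 0.22 ± 0.25 (adjusted p = 0.94) and none of the 6 members was called (0 at an unadjusted limma p under 0.05, 0.275% of all probe sets called, 0.207% rising and 0.0673% falling). The call of 1419667_at was lost without GM vector array 1 or 3 or GM shRNA array 2 or 3 (adjusted p up to 0.078), and that of 1419668_at without any 1 of the 6 arrays (0.052 to 0.18). The 3 GM vector arrays of 1419667_at lay below all 3 GM shRNA arrays.

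Whether the medium change itself differed between shRNA and vector cells was tested as an interaction. On MA 3 of 14 member probe sets had a lower change in shRNA cells and 0 a higher one, against 9.95% called, 4.48% lower and 5.48% higher, among all. These were both Sgcb probe sets and Sgca. Sgcb 1419667_at differed by −1.10 ± 0.21 (adjusted p = 0.0038) and kept its call without each of the 12 arrays. 1419668_at differed by −1.07 ± 0.30 (adjusted p = 0.039), a call lost in 9 of 12 such fits: it held only without DM vector array 3, GM shRNA array 2 or DM shRNA array 1.

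Sgca differed by −0.82 ± 0.20 (adjusted p = 0.020), a call lost without GM vector array 1 or DM shRNA array 2 (adjusted p at most 0.0545). Dag1 1426778_at differed by −0.22 ± 0.17 (95% interval −0.59 to 0.15, adjusted p = 0.51). Dtna 1419223_a_at gave −0.74 ± 0.33 (adjusted p = 0.19), which passed without GM vector array 1 (−1.02, adjusted p = 0.046). On MB none of the 6 was called (0 at an unadjusted limma p under 0.05, 0.389% of all called, 0.223% higher and 0.166% lower), with values from −0.99 to −0.36.

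Across the 12 MA arrays the leading probe sets of Dag1, Sgca, Sgcb and Dtna followed one another, with Pearson correlations of log2 values from 0.925 (Sgcb and Dtna) to 0.968 (Dag1 and Dtna). Utrn correlated with them at 0.27 to 0.38. All arrays share the same split of media, and 5.66 to 6.42% of 8636 genes reached 0.9 or more with any 1 of these 4. The genes most like Dag1 were Iffo1 (0.995), Plpp7 (0.994) and Hacd1 (0.993), and those most like Sgca were Tpm1 (0.995), a thin-filament tropomyosin, Pygm (0.994), the muscle glycogen phosphorylase, and Alpk3 (0.993).

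Sgcb was most like Dcaf13 (0.993), Adamts1 (0.984) and Trit1 (0.983), and Dtna like Tmem38b (0.9855), Hip1 (0.984) and Hrc (0.983), a calcium-binding protein of the sarcoplasmic reticulum. Utrn was most like Hnrnph1 (0.884), Vps50 (0.874) and Dnajb4 (0.864). On MB, Sntb1 was most like Ankrd10 (0.974), Ccdc8 (0.9695) and Rtn4 (0.968). Sgcb there was most like Tmem177 (0.957), Glo1 (0.905) and Dync1li2 (0.8915), and Dmd like Rbm4b (0.877), Bzw2 (0.840) and Rnase6 (0.8395).

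Genes that work beside the complex were counted on the MA arrays, 1 leading probe set per gene. Beside them stand the shares of all tested MA probe sets given above for each comparison, in vector cells 23.9% rising and 25.4% falling, and in DM with the shRNA 10.7% higher and 6.24% lower. Of 11 tested other subunits and partners, 4 rose and 2 fell in vector cells from GM to DM, with a median change of 0.18. Cav3, the muscle caveolin, rose by 5.14 ± 0.17, from 6.45 ± 3.83 (SD, n = 3) to 741 ± 122. Nos1, the neuronal nitric oxide synthase bound through syntrophin, rose by 1.71 ± 0.19 and Sspn, sarcospan, by 1.04 ± 0.16. Mapk12 rose by 0.43 ± 0.11. Sntb2, another syntrophin, fell by 1.44 ± 0.22, against the rise of Sntb1 on MB, and Dtnb, beta-dystrobrevin, fell by 0.63 ± 0.19, against the rise of Dtna. Cav3, and below Itgb1bp2 and Dysf, reached 30 in 0, 1 and 2 GM arrays. They passed the filter through DM, and with no filter their adjusted p in vector cells was 9.8e-11, 2.8e-10 and 2.0e-06. In DM the shRNA lowered Cav3 (−0.99 ± 0.17) and Mapk12 (−0.55 ± 0.11). Mapk12 was as much lower in GM (−0.57 ± 0.11, adjusted p = 0.0053; interaction 0.020 ± 0.15), where Cav3 gave −0.18 ± 0.17 (adjusted p = 0.62). Sntb2 was higher (0.69 ± 0.22), a call lost in 5 of 6 fits without 1 array: all but that without DM vector array 1. For the move of vector cells from GM to DM, the falling count of this list was 1 without GM vector array 1 or DM vector array 1.

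Dystroglycan needs a laminin-binding sugar chain to work. Of 12 tested enzymes and donors of that pathway, 2 rose and 4 fell in vector cells, with a median change of −0.13, a share called close to the 49.3% of all MA probe sets. Dpm1, which makes the mannose donor, rose by 1.60 ± 0.19 and Rxylt1 by 0.51 ± 0.14. Pomk, the kinase of the core sugar, fell by 0.93 ± 0.21 and Pomt1, a transferase of its first mannose, by 0.56 ± 0.19. The falling count was 2 or 3 without any 1 of the 6 arrays, being 2 without GM vector array 1 or 4. The call of Pomt1 was lost in 3 of these 6 fits (adjusted p up to 0.11). In DM the shRNA lowered Dpm1 alone (−0.61 ± 0.19, adjusted p = 0.040), a call that was lost without any array but DM vector array 3, and without that array 1 gene of the list rose.

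Of 13 tested genes of dystroglycan's extracellular ligands and the linked matrix, 4 rose and 3 fell in vector cells, with a median of −0.021. The fall counted 5 without DM vector array 3. Lama2, the laminin chain of muscle basement membrane, rose by 1.75 ± 0.21, and the collagen VI genes Col6a2 and Col6a1 by 1.77 ± 0.11 and 1.498 ± 0.10. Nid1, which ties laminin to collagen IV, fell by 2.37 ± 0.15, from 490.4 ± 36.9 (SD, n = 3) to 84.3 ± 20.4. In DM 5 of the 13 were higher with the shRNA and 0 lower, with a median of 0.37: Nid2 (1.42 ± 0.14), Nid1 (1.26 ± 0.15), Lamb1 (0.96 ± 0.20), Col6a2 (0.73 ± 0.11) and Col6a1 (0.68 ± 0.10). In GM 3 of the 13 were higher with the shRNA, and the differences of Col6a2 (1.44 ± 0.11, adjusted p = 3.1e-06) and Col6a1 (1.43 ± 0.10, adjusted p = 2.9e-06) were larger than in DM (interaction −0.71 ± 0.15 and −0.74 ± 0.15, adjusted p = 0.0082 and 0.0049). The third was Nid2 (0.51 ± 0.14, adjusted p = 0.037), and the count was 2 without any 1 array but GM vector array 4. Nid1 gave −0.20 ± 0.15 and Lamb1 −0.32 ± 0.20 in GM, neither called.

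The costamere, the rib of integrins, vinculin and filamin that runs beside the complex, rose in 8 of 15 tested genes and fell in 1 in vector cells, with a median of 0.66. Itgb1bp2, melusin, rose by 6.81 ± 0.25, Ldb3 by 3.28 ± 0.15, the filamin Flnc, which binds sarcoglycans, by 2.03 ± 0.14 and Itga7, the laminin-binding integrin of muscle, by 1.55 ± 0.12. The gene that fell was Ilk (−0.72 ± 0.11), and the falling count reached 4 without DM vector array 3 and 2 without GM vector array 4 or DM vector array 1 or 2. In DM the shRNA lowered 4 of them: Itgb1bp2 (−1.24 ± 0.25), Ldb3 (−0.69 ± 0.15), Des (−0.52 ± 0.16) and Flnc (−0.51 ± 0.14). Lims1 rose (0.70 ± 0.21). The call of Flnc was lost in 5 of 6 fits without 1 array (adjusted p up to 0.069), and on MB Flnc gave −0.57, not called (adjusted p = 0.40). The falling count lay between 2 and 5 without single arrays, being 2 without DM vector array 2 or DM shRNA array 2. Without DM vector array 3 or any 1 DM shRNA array the rising count was 0.

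Membrane repair genes went mostly the other way. Of 12 tested, 3 rose and 8 fell in vector cells, with a median of −1.15. Dysf, dysferlin, rose by 2.31 ± 0.21, while Myof, myoferlin, fell by 2.02 ± 0.25, S100a10 by 2.02 ± 0.10 and Anxa1 by 1.49 ± 0.18. In DM 7 were higher with the shRNA and 2 lower, with a median of 0.48. S100a10 was higher by 1.37 ± 0.10, Myof by 1.32 ± 0.25 and Anxa1 by 0.74 ± 0.18. Capn1 was lower (−0.99 ± 0.24) and so was Dysf (−0.64 ± 0.21, adjusted p = 0.0498), whose call was lost without any 1 of the 6 arrays, which leaves a count of 1.

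**Figure D4:**
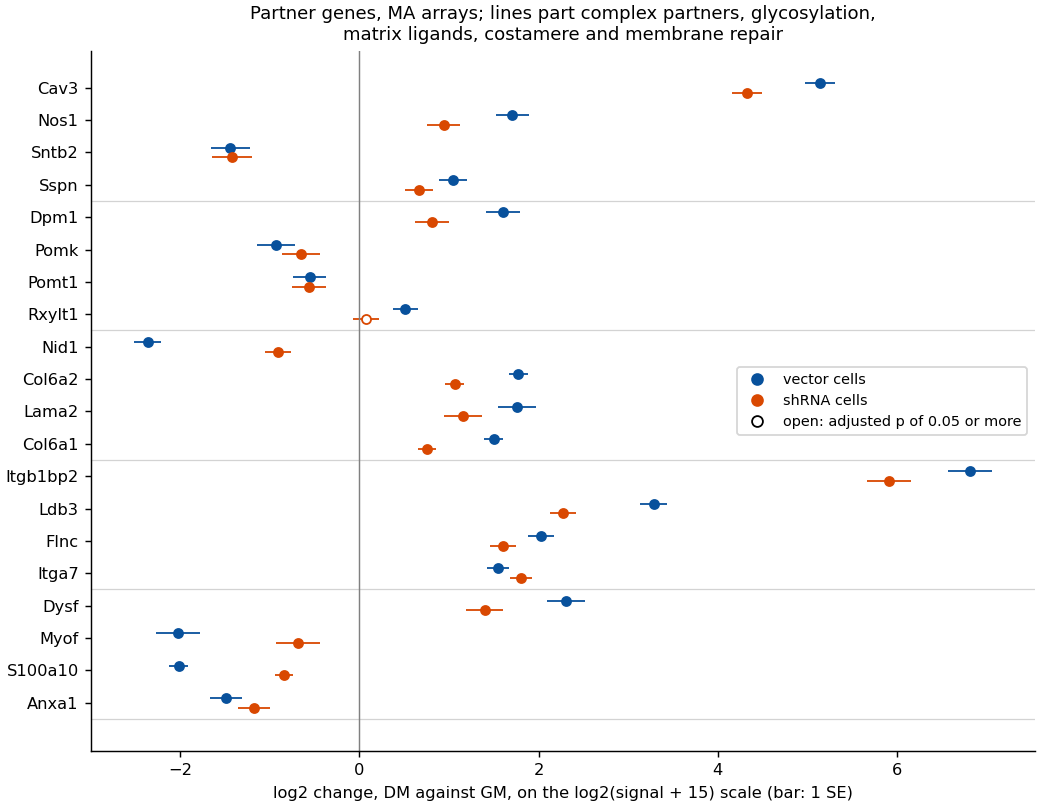
Log2 change from GM to DM (log2(signal + 15) scale, bars 1 SE) of 20 partner genes on the MA arrays in vector and in shRNA cells, up to 4 per list by the size of their change; filled points passed an adjusted p of 0.05. Itgb1bp2 and Cav3 rose furthest, Nid1, Myof and S100a10 fell by 2.02 to 2.37 in vector cells and by 0.69 to 0.91 in shRNA cells.

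On the MB arrays 2 of 7 tested partners rose in vector cells and 0 fell, among them Ank2, an ankyrin (1.68 ± 0.27, adjusted p = 0.0003), and of 7 costamere genes 1 rose, Flnc (2.79 ± 0.24, adjusted p = 1.8e-07), and 1 fell, Tln2 (−0.69 ± 0.15, adjusted p = 0.0053). Of 4 membrane repair genes Capn3 rose (0.83 ± 0.23, adjusted p = 0.028), and Anxa6 (−1.16 ± 0.18, adjusted p = 0.00024) and S100a10 (−0.98 ± 0.27, adjusted p = 0.028) fell. The call of Capn3 was lost without GM vector array 1 or 3 or DM vector array 2 or 3 (adjusted p up to 0.16), leaving 0 rising, and that of S100a10 without GM vector array 1 or 3 or DM vector array 1 (adjusted p up to 0.13), leaving 1 falling. Of the partners 1 fell without DM vector array 3. Over all MB probe sets 4.21% rose and 5% fell. None of 6 tested sugar-pathway genes and none of 2 matrix genes was called in limma at an adjusted p of 0.05.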

How the data were processed

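Total RNA of C2C12 cells was hybridised to arrays of 2 designs, 12 arrays each in 4 groups of 3. The deposited values are linear probe-set intensities, computed by the authors with MAS5 as the submitters' processing notes name it. The version and settings of MAS5 were not given in the sources used here. The arrays of a design share a trimmed mean. Groups and array numbers came from the titles, where some MA groups run to number 4. The number of arrays limits the precision.

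GEO's platform annotation supplied gene symbols, and probe sets with more than 1 symbol were not used. log2(signal + 15) was fitted in limma 3.58.1 (R 4.3.3) with 4 group means over the 12 arrays of a design and eBayes with a mean-variance trend. The 14367 MA and 19303 MB probe sets at 30 or more in at least 3 arrays were tested, with Benjamini-Hochberg adjustment per design and comparison at 0.05. Single values had exact permutation tests. The fit was tested on simulated data.

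Members and gene lists were chosen with earlier results of these data known. Named were all members, up to 4 genes per list with the largest change among those called, Ddx5, Myog and Ckm, and the 3 genes most correlated with each member. Mapk12, Dtnb, Lamb1, Nid2, Ilk, Des, Lims1, Capn1, Sgce and the comparisons with Dag1 were chosen after their values were seen. Alternatives varied the pseudocount, filter, normalization, replicate block, arrays fitted, trend, averaging of probe sets and single arrays.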

Additional observations from a re-analysis of the deposited data

Results flagged for a closer look

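The change from GM to DM differed between shRNA and vector cells, by the limma interaction test on the MA arrays, for 11 probe sets of members and of genes named by rule. Of all tested MA probe sets 9.95% were called in this test. Genes named by rule, except Ddx5, Myog and Ckm, had large called changes in comparisons that share arrays with this test. The number 11 can therefore not be read against that share. Among the members, Sgcb 1419667_at differed by −1.10 and Sgcb 1419668_at by −1.07 on the log2 scale, and Sgca 1422654_at by −0.82, all with a smaller rise in shRNA cells. The 2 Sgcb probe sets were already higher with the shRNA in GM, by 0.64 and 0.76. In DM they gave −0.46 and −0.30, the latter not called. Cav3 differed by −0.82 (adjusted p = 0.039), with a smaller rise in shRNA cells. Col6a1 differed by −0.74 and Col6a2 by −0.71, where the GM level was already higher in shRNA cells. Ldb3 differed by −1.01. Nid1 differed by 1.46, Myof by 1.33 and S100a10 by 1.17, each with a smaller fall in shRNA cells. Cnn1, a smooth muscle marker, differed by −0.92, with a larger fall in shRNA cells. Lamb1 (1.28) and Nid2 (0.91), named after their values were seen, also passed. The calls of Sgcb 1419668_at, Cav3 and Cnn1 were each lost in 9 of the 12 fits that left out 1 array. That of Myof was lost in 5 and that of Sgca in 2 of these fits.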

How the results depend on the processing

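The counts of members that changed from GM to DM (12 and 10 on MA, 4 and 3 on MB) stayed within 1.5 times of these under each other setting tried, and between 3 and 4 on MB in vector cells without single arrays. In DM, the count of members changed by the shRNA on MA fell from 2 to 1 with a pseudocount of 1, with no filter, with no trend and with only the groups compared, and lay between 1 and 2 without single arrays. Sgca was the probe set that stayed called. With a gene's probe sets averaged, the count of genes called was 1. In GM, the count fell from 2 to 1 with a pseudocount of 50, with no filter, with quantile normalization and with no trend, and lay between 0 and 1 without single arrays. The interaction count of 3 lay between 1 and 3, being 1 without DM shRNA array 2. The cause of these shifts was not tested. No called change turned its direction, and signs of uncalled changes were not followed. The counts of the partner lists under the alternatives, the comparison with Dag1 and the split of members by their GM arrays were added after the data were seen.

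With the replicate number as a block the counts were 12, 10, 2, 2 and 3 on MA and 4, 3, 0, 0 and 0 on MB, as without it. The titles do not say what a number marks, and the numbers were not taken to pair the samples. On MA, deviations of same-numbered arrays correlated at 0.278, −0.139 and 0.128 between vector and shRNA cells in DM, at 0.143 and 0.0926 in GM, and between media at 0.166 and 0.293 in vector and −0.0473 and 0.0625 in shRNA cells. On MB they lay between −0.0391 and 0.0284. Low signal limited Dmd, Sgcd and the MA probe sets of Sntb1.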
